A study of Mus musculus with 20 samples.

Results

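The genes described here are 10 transcription factor genes of the mouse germ line: the oocyte-specific homeobox genes Obox1, Obox2, Obox3, Obox5 and Obox6, the homeobox genes Nobox and Lhx8, and the basic helix-loop-helix genes Figla, Sohlh1 and Sohlh2. They were taken by gene symbol from the expression table of every library, 10 of 23309 symbols, with no threshold on expression. The RNA-seq data come from oocytes and early embryos of ICR mice in a study of maternal mRNA removal in the absence of Btg4. Its Btg4 experiment has 16 libraries, 2 for each of 8 groups, and its Erk experiment has 4 libraries, 1 per group.

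The 8 groups are wild type and Btg4-/- at 4 stages: the germinal vesicle (GV) oocyte, held in the prophase of meiosis, the mature oocyte held in the second metaphase (MII), the zygote and the 2-cell embryo. The 4 further groups are GV and MII oocytes that were wild type or Erk-/-. The labels do not say which Erk gene or genes were deleted, by what allele, or in which cells. Females were 21 to 23 days old, were injected with the gonadotropins PMSG and hCG and were mated where embryos were wanted. That protocol stands beside all samples but names wild-type and Btg4-/- females, not Erk-/- ones. The genotype of the males is not given in the sources used here, so an embryo called Btg4-/- is one labelled so. Each library was made from 60 pooled oocytes or embryos, and nothing says that both libraries of a group came from separate animals. The p-values given here therefore speak only of how much these samples vary, and that variation may be technical.

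Oocytes stop transcription at the end of growth, and the mRNAs they have stored are translated, silenced or removed until the embryo turns on its own genome, in the mouse mainly at the 2-cell stage. BTG4 is an adaptor that brings the CCR4-NOT deadenylase to maternal mRNAs. NOBOX, LHX8, FIGLA, SOHLH1 and SOHLH2 act in the first steps of follicle formation, where FIGLA turns on the zona pellucida genes and NOBOX turns on growth factor genes such as Gdf9. The OBOX proteins are homeodomain proteins of oocytes and early embryos that have been linked to activation of the embryonic genome, and their genes lie in a cluster of similar copies.

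In the mm9 coordinates of the deposited tables the Obox genes lie on chromosome 7, with Obox2 at chr7:15974200-15983892, Obox1 at chr7:16132606-16142195, Obox3 at chr7:16210655-16225126, Obox5 at chr7:16335719-16344623 and Obox6 at chr7:16418599-16425028. Lhx8 (chr3:153969258-153993524) and Sohlh2 (chr3:54985966-55013879) lie on chromosome 3, Nobox (chr6:43253673-43259553) and Figla (chr6:85967185-85970990) on chromosome 6, and Sohlh1 (chr2:25698517-25702768) on chromosome 2. A second locus named Obox2, on an unplaced contig of chromosome 7, was listed at 0 in all 20 libraries. Obox7 and Obox8, which the GENCODE M21 annotation also lists, have no entry under these symbols in the deposited values. Sums over all Obox loci below therefore cover the 5 Obox members alone.

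The Obox copies resemble each other enough for reads to be shared. In GENCODE M21, 60.1% of the 50-base windows of the longest Obox2 transcript also occurred in an Obox1 transcript, and 58% of those of Obox1 occurred in an Obox2 transcript. Obox5 shared 11.8% of its windows with any other Obox gene, Obox3 shared 1.55%, and no window of Obox6 was shared. Of the windows of Obox7, 15.6% occurred in an Obox5 transcript, and where its reads were counted was not tested. Values of Obox1 and Obox2 taken singly are therefore uncertain, those of Obox5 less so, and the sum over all Obox loci is given beside them.

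The sequences just before the annotated starts of Obox1, Obox5 and Obox3 are shown because Obox1 and Obox5 were abundant in GV oocytes while Obox3 appeared in wild-type 2-cell embryos, although these stretches are alike. Each run is the 250 bases before the start in RefSeq's GRCm38.p6 table, 5′ to 3′ on the gene's strand. The intervals are chr7:15547007-15547256 on the plus strand for Obox1, chr7:15750120-15750369 on the plus strand for Obox5 and chr7:15639778-15640027 on the minus strand for Obox3. Capitals mark the longest run that all 3 share, of 25 bases, and, nearer the start, the letters TATATAAG.
Obox1: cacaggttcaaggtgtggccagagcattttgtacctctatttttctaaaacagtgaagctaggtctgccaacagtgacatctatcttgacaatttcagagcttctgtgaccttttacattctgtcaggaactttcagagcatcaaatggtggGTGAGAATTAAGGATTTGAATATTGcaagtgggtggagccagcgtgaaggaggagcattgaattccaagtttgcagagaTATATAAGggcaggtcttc
Obox5: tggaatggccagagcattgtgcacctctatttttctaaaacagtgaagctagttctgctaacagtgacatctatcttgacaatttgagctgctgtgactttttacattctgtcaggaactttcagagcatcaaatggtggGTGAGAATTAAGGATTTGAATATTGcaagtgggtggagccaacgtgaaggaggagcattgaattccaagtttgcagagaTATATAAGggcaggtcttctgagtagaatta
Obox3: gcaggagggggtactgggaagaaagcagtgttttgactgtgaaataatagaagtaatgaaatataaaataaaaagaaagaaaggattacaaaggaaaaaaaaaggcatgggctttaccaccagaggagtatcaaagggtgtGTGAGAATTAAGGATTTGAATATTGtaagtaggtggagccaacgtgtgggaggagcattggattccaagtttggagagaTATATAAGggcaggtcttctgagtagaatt
Aligned end to end, the stretches of Obox1 and Obox5 were identical at 87% of positions, those of Obox3 and Obox5 at 66.5% and those of Obox1 and Obox3 at 60.9%. TATATAAG begins 19 bases before the annotated start in Obox1, 30 in Obox3 and 31 in Obox5. Those letters, chosen after the sequences were seen, occur on either strand in 3 of the 9 members with a promoter entry and in 0.935% of 32851 promoter stretches of the same length. The Obox2 stretch holds a run of 153 bases identical to the first part of the Obox1 stretch and ends where the capitals begin in Obox1. The motif CANNTG (both strands), the letters bound by helix-loop-helix factors such as FIGLA and SOHLH1, occurred in 7 of 9 member stretches and in 66.2% of all promoters. TAATTA or TAATTG, letters of the kind that NOBOX binds, occurred in 0 of 9 and in 11.3% of all. GGATTA, the letters of bicoid-type homeodomains, occurred in Obox3 alone, against 6.25% of all.

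Values below are FPKM, fragments scaled by transcript length and by the mapped fragments of the library, so they can be compared between genes per length but are relative within a library. Between 7265 and 10058 symbols reached 1 FPKM per library. Depth relative to the first wild-type GV library ran from 0.705 to 1.28 among the 16 Btg4 libraries and from 1.54 to 2.14 among the 4 Erk libraries, and absolute depth is not given in the files. Across genes, on log2(FPKM + 1), libraries of 1 group correlated at 0.943 to 0.979. Between groups of the Btg4 experiment r went down to 0.582, for a wild-type 2-cell library with Btg4-/- MII oocytes. The Erk libraries had r of 0.365 to 0.718 with the groups of the Btg4 experiment. Their wild-type GV library had r of 0.613 with wild-type GV oocytes there, but 0.699 with wild-type and 0.7135 with Btg4-/- zygotes. Their wild-type MII library was most like wild-type MII oocytes there (0.6535). All 10 oocyte markers checked were above 1 FPKM in every library. Btg4 itself followed its label at 2 of the 4 stages. It was lower in the libraries labelled Btg4-/- at MII (172 and 191 FPKM against 415 and 406) and in zygotes (139 and 164 against 610 and 559), but it stood at 1980 and 1881 FPKM in the GV libraries labelled Btg4-/- against 1450 and 1673 in wild type, and at 3514 and 3632 against 1147 and 964 in 2-cell embryos. Whether the counted fragments lie outside the deleted part cannot be read from gene totals, so these groups are called labelled Btg4-/- below. Of 13 granulosa and cumulus markers, 6 or 7 reached 1 FPKM in the 4 GV libraries of the Btg4 experiment, with sums of 70.8 to 87.5 FPKM in both genotypes against 5.07 to 19.7 at the later stages. The 5 blood markers summed to 85.0 and 50.3 FPKM in wild-type MII oocytes and to 1.53 and 0 in labelled Btg4-/- MII oocytes.

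Obox1, Obox2 and Obox5 were the abundant members at the GV stage, and in libraries labelled Btg4-/- all 3 were less abundant in MII oocytes and more abundant in 2-cell embryos than in wild type, with Obox1 and Obox2 also more abundant in GV oocytes. Obox1 stood at 1023 and 1044 FPKM in wild-type GV oocytes and at 1611 and 1497 in labelled Btg4-/- ones. Obox2 stood at 1227 and 1253 FPKM in wild type and at 2910 and 2673 in labelled Btg4-/- GV oocytes. Neither gene's groups overlapped, and both were higher in labelled Btg4-/-: Obox1 by 0.59 (SE 0.12) on log2(FPKM + 1), limma adjusted p = 0.0115, and Obox2 by 1.17 (SE 0.15), adjusted p = 0.000924. Obox5 stood at 1133 and 1123 FPKM in wild type and at 1504 and 1364 in labelled Btg4-/-, a difference of 0.34 (SE 0.10) that did not pass (adjusted p = 0.0636) though the groups did not overlap. Under median-of-ratios scaling Obox5 passed as well, at 0.59 (adjusted p = 0.00385). The Obox1 call was lost without any 1 of the 4 GV libraries (adjusted p 0.0512 to 0.0901), and in a fit of the GV libraries alone neither Obox1 nor Obox2 passed (adjusted p 0.117 and 0.0890).

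From GV to MII all 3 genes fell in both genotypes, further in labelled Btg4-/-. In wild-type MII oocytes Obox1 stood at 174 and 187 FPKM, Obox2 at 238 and 280 and Obox5 at 98.7 and 98.8. In labelled Btg4-/- MII oocytes Obox1 stood at 24.6 and 31.1 FPKM, Obox2 at 49.8 and 56.5 and Obox5 at 41.8 and 47.4. Every labelled Btg4-/- library was thus below every wild-type library for all 3 genes. The wild-type falls from GV were 5.72-fold for Obox1, 4.79-fold for Obox2 and 11.4-fold for Obox5, and the falls in labelled Btg4-/- were 55.8-fold, 52.5-fold and 32.2-fold. The genotypes differed in this step by -3.25 (SE 0.17, limma adjusted p = 4.7e-08) for Obox1, by -3.43 (SE 0.21, adjusted p = 1.34e-07) for Obox2 and by -1.48 (SE 0.15, adjusted p = 5.84e-06) for Obox5. The blood markers given above are higher in the wild-type MII libraries, and the granulosa and cumulus markers are higher in the GV libraries of both genotypes than at MII. Their part in these differences was not tested. In bulk samples, fewer cells that hold an mRNA and less of it per cell cannot be told apart. FPKM is also relative to the mapped fragments of a library, and the mRNA purification is not given. Changes of mRNA amount per cell therefore cannot be read from these values.

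From MII to zygote Obox1 and Obox2 rose in both genotypes, while Obox5 passed in labelled Btg4-/- alone. Wild-type zygotes had 438 and 465 FPKM of Obox1, 2.50-fold above MII (adjusted p = 1.24e-05), and 890 and 821 FPKM of Obox2, 3.30-fold above MII (adjusted p = 7.96e-06). Obox5 stood at 88.4 and 89.0 FPKM, with a log2 change of -0.15 from MII that did not pass (adjusted p = 0.309) but did under median-of-ratios scaling (-0.44, adjusted p = 0.00575). Labelled Btg4-/- zygotes had 60.4 and 54.0 FPKM of Obox1, 2.05-fold above MII (adjusted p = 0.000248), and 87.0 and 77.1 of Obox2, 1.54-fold above MII (adjusted p = 0.0143), well under every wild-type zygote library. The rise of Obox2 was lost under median-of-ratios scaling (0.0739) and without the first labelled Btg4-/- MII or zygote library (0.110 and 0.103), and in a fit of those groups alone none of the Obox rises in labelled Btg4-/- passed (0.0502 to 0.0697). Wild type was 7.90-fold higher for Obox1 (log2 difference -2.96, SE 0.12, adjusted p = 2.92e-09) and 10.4-fold higher for Obox2 (-3.37, SE 0.15, adjusted p = 5.26e-09). Obox5, at 84.7 and 99.6 FPKM in labelled Btg4-/- zygotes, overlapped with wild type and did not pass (adjusted p = 0.748). In labelled Btg4-/-, Obox5 rose 2.07-fold from MII to zygote (adjusted p = 8.25e-05), so that the step differed between genotypes by 1.18 (SE 0.15, adjusted p = 0.000306), whereas the same difference was -1.11 (SE 0.21, adjusted p = 0.00478) for Obox2 and -0.30 (SE 0.17) for Obox1, which did not pass (adjusted p = 0.305).

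At the 2-cell stage the order of the genotypes turned around. Wild-type 2-cell embryos had 153 and 175 FPKM of Obox1 and 87.9 and 124 of Obox2, below their zygote values by 2.75-fold and 8.09-fold (adjusted p = 4.53e-07 and 4.78e-09). Labelled Btg4-/- 2-cell embryos had 602 and 594 FPKM of Obox1 and 594 and 626 of Obox2, above their zygote values by 10.5-fold and 7.43-fold (adjusted p = 6.9e-10 and 1.39e-08). Obox5 rose in both, to 479 and 498 FPKM in wild type and to 1572 and 1604 in labelled Btg4-/-, by 5.51-fold and 17.2-fold from the zygote (adjusted p = 1.98e-09 and 6.11e-11). No labelled Btg4-/- library overlapped with a wild-type one, and the fold of labelled Btg4-/- over wild type was 3.64 for Obox1, 5.77 for Obox2 and 3.25 for Obox5 (adjusted p = 8.07e-08, 3.21e-08 and 4.82e-08). The zygote to 2-cell step differed between genotypes by 4.82 (SE 0.17) for Obox1, 5.90 (SE 0.21) for Obox2 and 1.65 (SE 0.15) for Obox5, with limma adjusted p-values of 1.53e-09, 1.53e-09 and 2.02e-06.

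**Figure D1:**
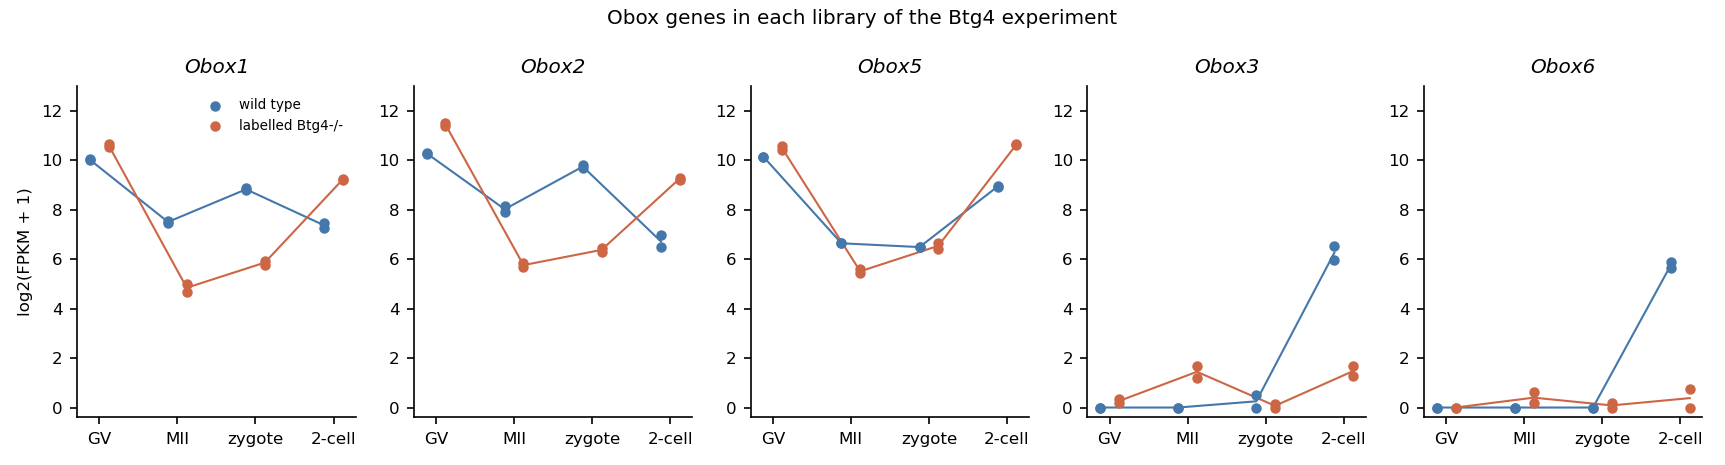
Level of the 5 Obox genes as log2(FPKM + 1) against stage, with 1 point per library and lines through the mean of the 2 libraries of a group, for wild type and labelled Btg4-/-. Obox1, Obox2 and Obox5 run from 1023 to 2910 FPKM at GV to between 24.6 and 280 FPKM at MII in both genotypes, and Obox3 and Obox6 are near 0 until they reach 49.6 to 91.9 FPKM in wild-type 2-cell embryos.

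Obox3 and Obox6 had the opposite course and stood out only in wild-type 2-cell embryos. In the Btg4 experiment Obox3 was listed at 0 in both wild-type GV and both wild-type MII libraries and at 0 and 0.417 FPKM in wild-type zygotes, and it reached 91.9 and 62.1 FPKM in wild-type 2-cell embryos. Obox6 was listed at 0 in all wild-type libraries of the Btg4 experiment before the 2-cell stage (0.156 and 0.0758 FPKM in the wild-type GV and MII libraries of the Erk experiment), where it reached 49.6 and 58.5 FPKM. These rises of 6.01 (SE 0.28) and 5.78 (SE 0.26) on log2(FPKM + 1) passed (limma adjusted p = 3.26e-09 and 2.79e-09). Labelled Btg4-/- 2-cell embryos had 1.43 and 2.17 FPKM of Obox3 and 0 and 0.695 of Obox6, far below both wild-type libraries. Wild type was 42.8-fold higher for Obox3 (log2 difference -4.79, SE 0.28, adjusted p = 3.12e-08) and 156-fold higher for Obox6 (-5.40, SE 0.26, adjusted p = 7.26e-09). The denominator of the latter rests on 1 library with a signal of about 6.61 fragments, judged from its deposited interval, and the fold was 77.8 without the other, so it is loose. Obox6 entered the tests only through the wild-type 2-cell group. It thus had to be high there, so its p-values at this stage are a description and support nothing.

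A low level of Obox3 was also seen in labelled Btg4-/- MII oocytes, at 2.22 and 1.30 FPKM against 0 in both wild-type MII libraries. It passed as higher (1.45, SE 0.28, limma adjusted p = 0.000702), on about 23.0 and 11.1 fragments per library. Obox3 had fallen to 0.101 and 0 FPKM in labelled Btg4-/- zygotes (adjusted p = 0.00577 for the step). That fall was lost without the first labelled Btg4-/- MII library (0.0596) or the second zygote library (0.0529), as was the genotype difference of that step (-1.63, SE 0.39, adjusted p = 0.0183), at 0.0695 and 0.0650, and at 0.0771 without the second wild-type zygote library. The genotype difference of the GV to MII step, 1.18 (SE 0.39, adjusted p = 0.0277), was lost with a pseudocount of 0.1 FPKM (0.0624), without either wild-type GV or either wild-type MII library (0.0584 to 0.0660), and without the first labelled Btg4-/- GV (0.0756) or MII library (0.106).

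Summed over all Obox loci, the family stood at 3402 ± 26.2 FPKM (SD, n = 2) in wild-type GV oocytes, 538 ± 38.6 at MII, 1396 ± 28.3 in zygotes and 889.8 ± 39.5 in 2-cell embryos. Labelled Btg4-/- libraries had 5780 ± 347, 128 ± 12.9, 231 ± 1.23 and 2798 ± 41.0 FPKM at the same stages. At no stage did the summed values of the genotypes overlap, with labelled Btg4-/- above wild type at GV and 2-cell and below it at MII and zygote. The mix of the 3 abundant copies changed as well. Obox5 made up 33.5% and 32.8% of the sum of Obox1, Obox2 and Obox5 in wild-type GV oocytes, 6.24% and 6.47% in wild-type zygotes and 66.5% and 62.5% in wild-type 2-cell embryos. In labelled Btg4-/- libraries its share was 25.0% and 24.6% at GV, 36.5% and 43.2% in zygotes and 56.8% in both 2-cell libraries. The ratio of Obox2 to Obox1, the pair with the most shared sequence, ran from 0.573 and 0.705 in wild-type 2-cell embryos to 2.03 and 1.77 in wild-type zygotes.

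**Figure D2:**
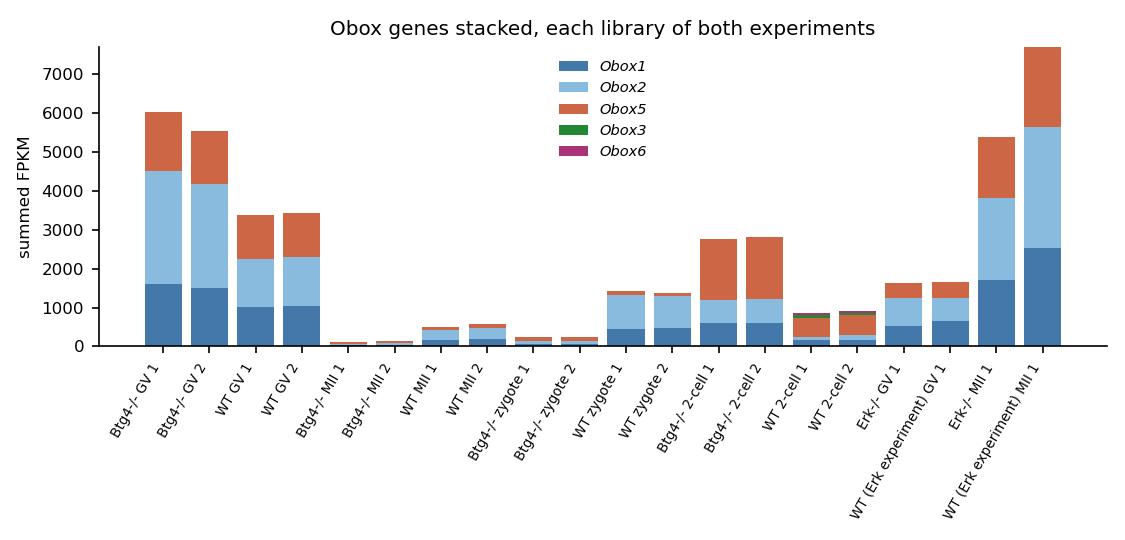
Summed FPKM of the Obox genes in each of the 20 libraries, stacked by gene. The sum is lowest in labelled Btg4-/- MII oocytes (119 and 137 FPKM) and highest in the wild-type MII library of the Erk experiment (7701 FPKM), and Obox3 and Obox6 are visible only in wild-type 2-cell embryos.

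Nobox, a homeobox gene needed for follicle growth, Lhx8, a LIM homeobox gene, and Figla were higher in labelled Btg4-/- than in wild type at MII, zygote and 2-cell, while Nobox and Figla were lower in labelled Btg4-/- GV oocytes. Nobox stood at 46.1 and 48.5 FPKM in wild-type GV oocytes and at 29.7 and 29.2 in labelled Btg4-/- ones, without overlap (log2 difference -0.67, SE 0.16, limma adjusted p = 0.0239). Figla stood at 14.9 and 15.8 FPKM in wild type and at 6.33 and 4.33 in labelled Btg4-/- GV oocytes (-1.39, SE 0.37, adjusted p = 0.0379). Lhx8 stood at 58.6 and 59.8 FPKM in wild type and at 49.4 and 43.8 in labelled Btg4-/-, a difference of -0.34 (SE 0.13) that did not pass (adjusted p = 0.144). The Nobox and Figla calls at GV were lost under median-of-ratios scaling (adjusted p = 0.137 and 0.0708), under quantile normalization (0.140 and 0.111) and without any 1 of the GV libraries (0.0738 to 0.250 for Figla, 0.0794 to 0.137 for Nobox). The Figla call was also lost with a pseudocount of 0.1 FPKM (0.0580), with no filter (0.0689) and without single labelled Btg4-/- MII, labelled Btg4-/- zygote or wild-type 2-cell libraries (0.0517 to 0.0631). Figla rests there on about 14.7 to 25.3 fragments per library.

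At MII the difference was large for all 3. Nobox stood at 36.1 and 28.9 FPKM in wild-type MII oocytes and at 95.9 and 113 in labelled Btg4-/- ones, 3.22-fold higher (1.66, SE 0.16, limma adjusted p = 1.82e-06). Figla stood at 4.66 and 3.27 FPKM in wild type and at 77.4 and 71.7 in labelled Btg4-/-, 18.8-fold higher (3.94, SE 0.37, adjusted p = 1.57e-06). Lhx8 stood at 27.6 and 23.5 FPKM in wild type and at 147 and 135 in labelled Btg4-/-, 5.50-fold higher (2.42, SE 0.13, adjusted p = 1.2e-08). No libraries overlapped between genotypes. Wild type fell from GV to MII in each of them, with log2 changes of -0.54 for Nobox, -1.73 for Figla and -1.19 for Lhx8 (adjusted p = 0.0117, 0.00144 and 6.04e-06), and labelled Btg4-/- rose by 1.79, 3.59 and 1.57 (adjusted p = 1.06e-06, 4.09e-06 and 5.86e-07). The step differed between genotypes by 2.33 (SE 0.22) for Nobox, 5.33 (SE 0.52) for Figla and 2.76 (SE 0.18) for Lhx8, with limma adjusted p-values of 4.32e-06, 5.06e-06 and 2.51e-07. These falls and rises are of relative values too, so they do not give the mRNA amount per cell. The wild-type fall of Nobox alone was lost under quantile normalization (-0.20, adjusted p = 0.330), in a fit of those groups alone (0.0532), without the second wild-type GV library (0.0633) and without the second wild-type MII library (0.110).

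The higher levels of these 3 genes were also seen in labelled Btg4-/- zygotes and 2-cell embryos. In zygotes Nobox stood at 61.5 and 61.0 FPKM in wild type against 141 and 132, Lhx8 at 50.2 and 49.6 against 163 and 160, and Figla at 1.36 and 3.55 against 64.2 and 44.8. The folds of labelled Btg4-/- over wild type were 2.23 for Nobox, 3.23 for Lhx8 and 22.2 for Figla, and none of the groups overlapped (limma adjusted p = 6.34e-05, 4.51e-07 and 1.74e-06). The Figla fold rests on about 5.98 and 10.1 fragments in wild type and was 40.0 without the second wild-type zygote library. In 2-cell embryos Nobox stood at 16.8 and 22.0 FPKM in wild type against 47.4 and 41.4, and Lhx8 at 31.6 and 28.4 against 106 and 90.7 (adjusted p = 5.5e-05 and 4.04e-07). Figla was listed at 0 in both wild-type 2-cell libraries and stood at 20.8 and 46.2 FPKM in labelled Btg4-/- ones (5.0 on log2(FPKM + 1), SE 0.37, adjusted p = 2.55e-07). From MII to zygote wild-type Nobox rose 1.88-fold and Lhx8 1.95-fold (adjusted p = 0.00124 and 0.000258). In a limma fit of those groups alone the Nobox rise did not pass (adjusted p = 0.0535). From zygote to 2-cell wild-type Nobox and Lhx8 fell 3.15-fold and 1.66-fold (adjusted p = 1.98e-06 and 0.00042). Labelled Btg4-/- embryos fell at that step too, 3.07-fold for Nobox and 1.64-fold for Lhx8 (adjusted p = 3.82e-06 and 0.000678). The genotype difference of the zygote to 2-cell step was 0.02 (SE 0.22) for Nobox and 0.01 (SE 0.18) for Lhx8 and did not pass (adjusted p = 0.958 and 0.985). That of the MII to zygote step passed for Lhx8 (-0.75, SE 0.18, adjusted p = 0.0202), but not under quantile normalization (-0.38, adjusted p = 0.247), nor without any 1 of the zygote libraries, the first labelled Btg4-/- MII or the second wild-type MII library (0.0531 to 0.0685).

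**Figure D3:**
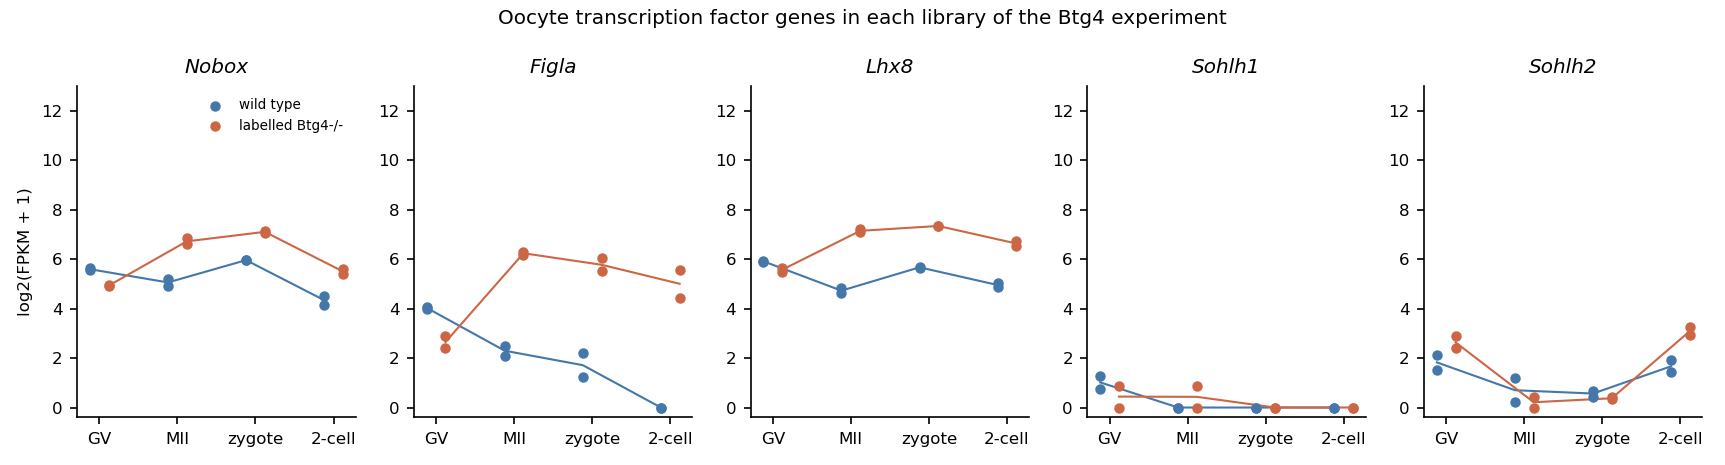
Level of Nobox, Figla, Lhx8, Sohlh1 and Sohlh2 as log2(FPKM + 1) against stage, with 1 point per library and lines through the group means, for wild type and labelled Btg4-/-. From MII on, every labelled Btg4-/- library lies above every wild-type library for Nobox, Figla and Lhx8, with the widest gap for Figla in 2-cell embryos (5.0 on this scale, wild type listed at 0), while Sohlh1 stays at or below 1.40 FPKM throughout.

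The SOHLH genes act upstream in the smallest follicles. Sohlh1 was near the floor of the measurement and Sohlh2 was low in most groups. Sohlh1 was above 0 in 4 of 20 libraries, at 0.703 and 1.40 FPKM in wild-type GV oocytes, at 0.845 in 1 labelled Btg4-/- GV library and at 0.820 in 1 labelled Btg4-/- MII library, and it entered the tests only through the wild-type GV group. Its fall from that group was therefore set by the filter. Sohlh2 stood at 1.85 and 3.40 FPKM in wild-type GV oocytes and at 6.34 and 4.25 in labelled Btg4-/- ones, which did not pass (adjusted p = 0.202). It was at or below 1.26 FPKM in every MII and zygote library of the Btg4 experiment. In 2-cell embryos it stood at 1.68 and 2.76 FPKM in wild type and at 8.46 and 6.64 in labelled Btg4-/-, without overlap (3.40-fold, limma adjusted p = 0.00472). From the zygote it had risen 4.58-fold in wild type (adjusted p = 0.0168) and 25.5-fold in labelled Btg4-/- (adjusted p = 4.16e-05), and the step differed between genotypes by 1.61 (SE 0.50, adjusted p = 0.0173). With a pseudocount of 0.1 FPKM the 2-cell difference did not pass (adjusted p = 0.0996), nor did the difference in the step (0.132) or the wild-type rise (0.0582). The 2-cell difference was also lost in a fit of the 2-cell groups alone (0.0578), and the wild-type rise under quantile normalization (0.064). The difference in the step was also lost without the first wild-type zygote, the first labelled Btg4-/- 2-cell or the first wild-type 2-cell library (0.0533 to 0.0673), and the wild-type rise without the second wild-type zygote or 2-cell library (0.0918 and 0.122). The wild-type falls from GV to MII of Sohlh1 (adjusted p = 0.0144) and Sohlh2 (0.0160) were lost without the second wild-type GV library (0.119 and 0.142), that of Sohlh1 also without either wild-type MII library (0.0541 and 0.0575) and that of Sohlh2 without the first (0.177).

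All 10 members passed the filter on low values, Obox6 and Sohlh1 through 1 group each, and 12311 genes were tested in all. Each had to be high in its group, so the call of Obox6 as lower at 2-cell was set by the filter and supports nothing. At GV 4 of 10 members passed, 2 higher and 2 lower, against 7.9% of all genes (1.45% higher and 6.46% lower). Of the genes called there 18.3% were higher, a share that became 53.6% under median-of-ratios scaling, with 3 members higher and none lower, and 38.1% under quantile normalization, with 2 members higher and none lower. At MII 7 members passed, 4 higher and 3 lower, against 52.4% of all genes (29.1% higher and 23.3% lower). In zygotes 5 members passed, 3 higher and 2 lower, against 47.7% (24.4% higher and 23.3% lower). In 2-cell embryos 9 passed, 7 higher and 2 lower, against 49% (22.6% higher and 26.4% lower). The median difference of the members was 0.13, 0.42, 0.02 and 1.55 on log2(FPKM + 1) at the 4 stages, beside -0.12, 0.09, 0.01 and -0.05 for all genes. At MII and in zygotes about as many of all genes differed as of the members, so those counts say nothing particular about the members.

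**Figure D4:**
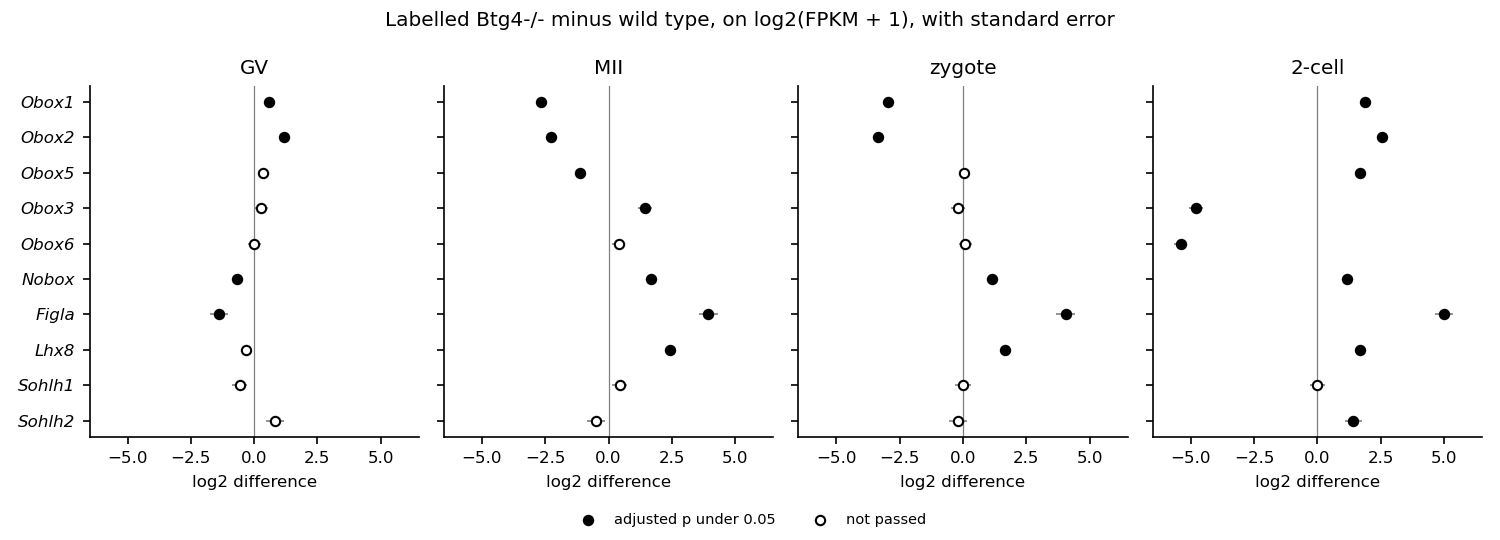
Log2 difference of labelled Btg4-/- minus wild type for the 10 members at each stage, on log2(FPKM + 1), with its standard error as a bar. Filled points passed at an adjusted p of 0.05: 4 at GV, 7 at MII, 5 in zygotes and 9 in 2-cell embryos, with Obox1 and Obox2 to the right of 0 at GV and 2-cell and to the left at MII and zygote.

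Between stages of wild type, 8 members were lower in MII than in GV oocytes, against 28.5% of all genes lower and 53.7% in either direction. Sohlh1, among the 8, entered the tests through the wild-type GV group alone, so its fall was set by the filter. From MII to zygote 4 were higher (Obox1, Obox2, Nobox and Lhx8), against 20.5% of all genes higher and 28.5% in either direction. The share of higher genes among all called at that step was 71.9%, and 50.8% under median-of-ratios and 52% under quantile scaling. From zygote to 2-cell 4 members were higher (Obox3, Obox5, Obox6 and Sohlh2) and 5 lower (Obox1, Obox2, Nobox, Figla and Lhx8), against 57.4% of all genes (27.1% higher and 30.2% lower). Obox6 entered through the wild-type 2-cell group alone, so its calls at this step, also between genotypes, were set by the filter. In labelled Btg4-/-, 4 members were higher and 4 lower from GV to MII, against 45.4% of all genes (27.3% higher and 18.1% lower). There 3 were higher and 1 lower from MII to zygote, against 15.7% (10.3% higher and 5.38% lower), and 5 higher and 2 lower from zygote to 2-cell, against 46.5% (18.3% higher and 28.2% lower). Of all genes called in labelled Btg4-/-, 60.2% were higher at MII than GV and 65.8% higher in zygote than MII, but 46.5% and 39.5% under median-of-ratios scaling. The genotypes differed in the GV to MII step for 7 members, against 42.5% of all genes (26.5% with a higher and 16% with a lower value in labelled Btg4-/-). They differed in the MII to zygote step for 4, against 12.2% (4.95% higher and 7.25% lower), and in the zygote to 2-cell step for 6, against 48% (22.2% higher and 25.9% lower). For these differences the share of higher calls among all genes was 62.4% at the first step, and 52.2% and 48.8% under the 2 scalings, and 40.6% at the second step, and 56.2% under quantile normalization.

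Genes reported to depend on NOBOX, FIGLA, SOHLH1 or LHX8 were split in direction at MII and in zygotes. Of 20 such genes tested, 9 were higher and 7 lower in labelled Btg4-/- MII oocytes (median 0.25, beside 0.09 for all genes). Zp2 and Zp3, zona pellucida genes and targets of FIGLA, were among the higher ones: Zp2 stood at 674 ± 27.4 FPKM (SD, n = 2) against 65.3 ± 13.2 (log2 difference 3.36) and Zp3 at 735 ± 53.6 against 159 ± 9.10 (2.20). Zp1 and Bmp15, also on the list, are not given here. Padi6, an egg cytoplasm gene, was higher by 3.14 and Dnmt1, a DNA methyltransferase gene, was lower (-1.95). Gdf9, the growth factor gene bound by NOBOX, was lower, at 890 ± 73.2 FPKM against 1959 ± 91.1 (-1.14), as was Kit, the receptor of the oocyte surface (-3.01). In 2-cell embryos 17 of the 20 were higher and 2 lower (median 1.64, beside -0.05 for all genes), led by Zar1 (4.23) and H1foo (3.38), with Kit (-0.75) and Pou5f1 (-0.46) lower. In zygotes 9 were higher, led by Zp2 (4.29) and Zp3 (3.22), and 6 lower, led by Oosp1 (-2.51) and Kit (-2.28). At GV 2 were higher (Rfpl4, 0.56, and Oog1, 0.42) and 7 lower, led by H1foo (-0.99) and Gdf9 (-0.97), a count of 9 that became 0 in a fit of the GV libraries alone, 5 under either other scaling and 2 to 6 without any 1 GV library.

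Other transcription factor genes of the oocyte and partners of the members, were 12 genes tested. Sall4, a zinc finger gene of germ cells, was lower in labelled Btg4-/- at every stage, with log2 differences of -1.23 at GV, -3.53 at MII, -1.66 in zygotes and -2.15 in 2-cell embryos. Of the 12, 7 were lower at GV, 7 lower and 2 higher at MII, 7 lower and 1 higher in zygotes, and 6 lower in 2-cell embryos (medians -0.56, -0.86, -0.81 and -0.48, beside -0.12, 0.09, 0.01 and -0.05 for all genes). Of all genes, 6.46% were lower at GV, 23.3% at MII, 23.3% in zygotes and 26.4% in 2-cell embryos. The shares higher were 1.45%, 29.1%, 24.4% and 22.6%. Ybx2, an mRNA-binding protein gene of germ cells, was the leading higher one at MII (1.74) and in zygotes (0.93), and Pou5f1, which is also in the list of dependent genes, was higher at MII (0.66, and 0.12 under quantile normalization, which did not pass). Tcf4, a helix-loop-helix partner gene, was lower at MII (-2.18) and in zygotes (-1.74), Stat3 at GV (-0.92) and in zygotes (-1.66), and Yy1 in 2-cell embryos (-3.32). The Stat3 call at GV was lost under median-of-ratios scaling (limma adjusted p = 0.0662) and quantile normalization (0.103). It was also lost without any 1 GV library or either wild-type zygote library. In a limma fit of the GV libraries alone neither Stat3 (adjusted p = 0.152) nor Sall4 (0.0890) passed. The GV count of 7 became 0 in a fit of the GV libraries alone, 2 under median-of-ratios scaling, 3 under quantile normalization and 2 to 4 without any 1 GV library.

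The list of embryonic genome activation has 18 genes in the files, of which 14 passed the filter, 7 of them through the wild-type 2-cell group alone, as Obox6 did. Genes that enter this way had to be high there, so the counts that follow are a description and support nothing. All 14 were higher in wild-type 2-cell embryos than in zygotes and all 14 were lower in labelled Btg4-/- than in wild-type 2-cell embryos, led by Tdpoz5 (-5.0) and Kdm5b (-4.45). The Zscan4 and Tdpoz genes on this list are families of close copies, so single values of theirs are uncertain. In zygotes limma called 0 of the 14, with 1 at an unadjusted p under 0.05. At MII 2 were higher (Tdpoz5, 1.31, and Zscan4d, 0.90), and both calls were lost without the second labelled Btg4-/- MII library (adjusted p = 0.186 and 0.0962) or the first wild-type MII library (0.129 and 0.0651). At GV 1 was higher (Zscan4f, 0.99, adjusted p = 0.0465), which was lost without any 1 GV library (0.123 to 0.241) or any 1 MII or labelled Btg4-/- zygote library (0.0571 to 0.0663).

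The genes whose course over the 8 group means was most like that of each member were found by Pearson r on log2(FPKM + 1), a description over 8 points that share libraries and depth. They were Pole2 for Obox1 (0.988), followed by Tmem38b (0.972) and Slc25a32 (0.971), and Pole2 again for Obox2 (0.982), followed by Obox1 (0.966) and Ftsjd1 (0.966). Obox5 was most like Tgfbr3 (0.982), Rchy1 (0.982) and Rnft1 (0.980). Obox3 was most like LOC100502924 (0.990), B020004J07Rik (0.986) and Gm11487 (0.985), and Obox6 like Tdpoz1 (0.999), Dmbx1 (0.999) and Epm2a (0.998). Nobox was most like Ap3s2 (0.993), Tom1l1 (0.989) and Mocs1 (0.989), Lhx8 like Tfb1m (0.987), Gm13125 (0.984) and Prodh (0.974), and Figla like Ntpcr (0.988), Iltifb (0.982) and Ccdc23 (0.982). Sohlh2 was most like Cybrd1 (0.975), Mad2l1 (0.970) and Vkorc1l1 (0.968), and Sohlh1 like Ppp1r14a (0.982), Defb19 (0.981) and Gm15417 (0.979). Among the members, r was 0.97 for Obox1 with Obox2, 0.98 for Obox3 with Obox6, 0.91 for Figla with Lhx8, 0.87 for Nobox with Lhx8 and -0.56 for Obox1 with Nobox. Obox3 and Obox6 stood out only in wild-type embryos of the last stage, so their r rests mainly on that group. Any gene high in that group alone would have a high r with them. Obox1 and Obox2 share much of their sequence, and the part of shared reads in their r was not tested.

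In the Erk experiment, with 1 library per group and therefore no test, the maternal Obox genes were higher in MII than in GV oocytes, against the direction of the Btg4 experiment. Wild-type oocytes of that experiment had 654 FPKM of Obox1 at GV and 2519 at MII, 604 and 3128 of Obox2, and 406 and 2054 of Obox5, which is 3.85-fold, 5.18-fold and 5.06-fold. Erk-/- oocytes had 524 FPKM of Obox1 at GV and 1711 at MII, 714 and 2100.5 of Obox2, and 382 and 1572 of Obox5. Sohlh2 was listed at 0 in both GV libraries and stood at 11.5 FPKM in wild-type and 13.5 in Erk-/- MII oocytes. Nobox, Lhx8 and Figla went the other way: wild type had 335, 95.1 and 13.8 FPKM at GV and 6.40, 3.91 and 2.10 at MII, lower by 52.3-fold, 24.3-fold and 6.57-fold. On log2(FPKM + 1) at least a 2-fold change was seen for 4 members higher and 3 lower of the 8 members that reached 1 FPKM in this experiment, against 67.3% of 11404 genes (20.4% higher and 46.9% lower). Sohlh2, among the 4, reached 1 FPKM at MII alone in this experiment, so the filter favoured its rise. The wild-type GV library of this experiment was less like wild-type GV oocytes of the Btg4 experiment (r = 0.613) than like its zygotes (0.699 and 0.7135). The experiment and its libraries cannot be told apart from the difference in direction.

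Erk-/- MII oocytes had more of the 3 oocyte factors than wild-type MII oocytes. Lhx8 stood at 44.7 FPKM against 3.91 (11.4-fold), Nobox at 36.5 against 6.40 (5.70-fold) and Figla at 6.91 against 2.10 (3.28-fold). With Obox3, at 2.33 against 0 FPKM, 4 of 8 members differed at least 2-fold, all higher, against 38.8% of genes (30.7% higher and 8.08% lower). Obox3 reached 1 FPKM in Erk-/- MII oocytes alone, so it had to be higher there and adds no support. Obox1, Obox2 and Obox5 were lower in Erk-/- MII oocytes by 1.47-fold, 1.49-fold and 1.31-fold. At GV only Figla, at 32.1 against 13.8 FPKM, differed at least 2-fold between Erk-/- and wild type, 1 of 8 members against 42.2% of genes (18.7% higher and 23.5% lower). Within Erk-/-, 5 members were higher and 3 lower at MII than at GV, against 57.3% of genes (23.9% higher and 33.4% lower). Obox3 and Sohlh2, among the 5, reached 1 FPKM in this experiment at MII alone, so the filter favoured their rises. The summed Obox level was 1620.2 FPKM in Erk-/- and 1664 in wild-type GV oocytes, and 5386 and 7701 at MII.

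**Figure D5:**
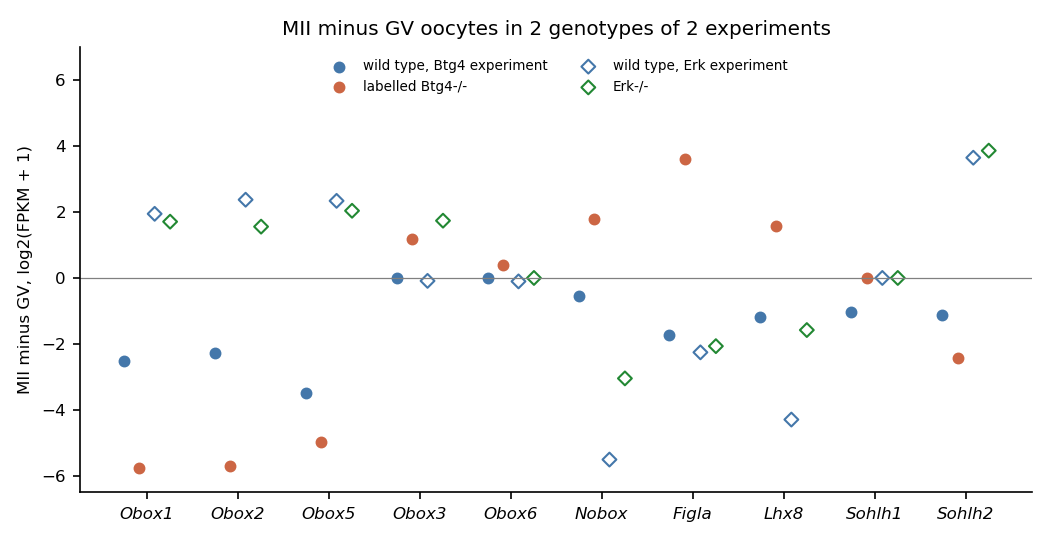
Difference of MII minus GV oocytes on log2(FPKM + 1) for each member, in wild type and labelled Btg4-/- of the Btg4 experiment (filled circles, difference of the means of 2 libraries each) and in wild type and Erk-/- of the Erk experiment (open diamonds, 1 library each). Obox1, Obox2 and Obox5 lie below 0 in both genotypes of the first and above 0 in both of the second, while Nobox, Figla and Lhx8 lie above 0 in labelled Btg4-/- alone.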

How the data were processed

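RNA-seq of 20 mouse oocyte and embryo samples was used as gene-level FPKM values, as the authors deposited them for 23813 loci per library. CASAVA 1.8, TopHat, Cufflinks and the genome build mm9 are named in the submitters' processing notes. The annotation, the mRNA purification and the versions of TopHat and Cufflinks were not given in the sources used here. Loci of 1 symbol were summed. The authors' intervals around each FPKM were taken as 4 SDs wide to judge fragments, but 426 to 1018 loci per library lie above their own interval, so the intervals served as no error. FPKM is relative, and shared reads of gene copies can be split between them.

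Groups came from the sample titles and genotype labels. Tests used limma 3.58.1 in R 4.3.3 on log2(FPKM + 1), a scale that understates changes of low genes, with a group-means model over all 16 Btg4 libraries, which leaves 8 residual degrees of freedom, and a variance trend. Genes with a mean of at least 1 FPKM in at least 1 group entered (12311), p-values were two-sided and adjusted by Benjamini-Hochberg over them, and the threshold was 0.05. The procedure was tested on simulated data. The Erk libraries were compared without a test, a change counting from 2-fold. A check of the Erk labels is not reported here. Members, gene lists and tests were chosen with earlier results of these data known. All 10 members are named, with the 3 genes most like each and, per list and genotype comparison, up to 2 genes of the largest change in each direction that passed. The lists of Sall4 and similar factors, of dependent genes and of genome activation genes had 12, 20 and 14 genes tested. The alternatives were a pseudocount of 0.1 FPKM, no filter, a filter at 5 FPKM, median-of-ratios scaling, quantile normalization, a replicate block, a fit of the compared groups alone, and leaving out each library. Sequences come from RefSeq (GRCm38.p6, 9 of 10 members matched) and GENCODE M21, read with Biopython 1.88. The replicate error rests on 2 libraries per group.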

Additional observations from a re-analysis of the deposited data

Results flagged for a closer look

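Several members took a different course in labelled Btg4-/- than in wild type, by limma's test of the difference between genotypes in a step, given here on log2(FPKM + 1) as labelled Btg4-/- minus wild type. From GV to MII the difference was -3.25 for Obox1, -3.43 for Obox2, -1.48 for Obox5 and 1.18 for Obox3, and it was 2.33 for Nobox, 5.33 for Figla and 2.76 for Lhx8. From MII to zygote it was -1.11 for Obox2, -1.63 for Obox3, 1.18 for Obox5 and -0.75 for Lhx8. From zygote to 2-cell it was 4.82 for Obox1, 5.90 for Obox2, 1.65 for Obox5, 1.61 for Sohlh2, -4.60 for Obox3 and -5.48 for Obox6. Obox6 was tested only because of its wild-type 2-cell level, so its value is a description. The members called were 7 of 10 at the first step, against 42.5% of all genes. At the second step they were 4, against 12.2%, and at the third 6, against 48%. The calls of Obox3 at the first 2 steps, of Lhx8 and of Sohlh2 were lost without some single libraries.

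Between the wild-type oocytes of the experiments, MII minus GV had opposite signs for 4 members in every library. The Erk experiment gave 1.94 for Obox1, 2.37 for Obox2, 2.34 for Obox5 and 3.64 for Sohlh2, where the Btg4 experiment gave -2.51, -2.26, -3.50 and -1.13. This difference was not tested, because the Erk experiment has 1 library per group. The share of all genes that turned sign in this way was not counted, so the 4 say nothing particular about the members. The Sohlh2 fall in the Btg4 experiment did not pass in a limma fit of the compared groups alone (adjusted p = 0.141).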

How the results depend on the processing

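Of 130 member results (10 members in 13 comparisons), 82 passed, and none of those 82 changed sign in any alternative. Over the same 13 comparisons 7.9% to 57.4% of all genes passed. The 82 include calls of Obox6 and Sohlh1 that were set by the filter, so their steady sign supports nothing. The number that still passed was 77 with a pseudocount of 0.1 FPKM, 81 with no filter, 81 of 81 with a filter at 5 FPKM, 79 after median-of-ratios scaling, 77 after quantile normalization, 70 in fits of the compared groups alone and 75 to 82 when 1 library was left out. With a replicate block 82 passed, and the block changed no call. Deviations of same-numbered libraries correlated at -0.0148 to 0.126, so the samples share only a number, and with the block 1076 genes in place of 973 passed at GV.

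The count of members that passed at GV was 2 under quantile normalization, 0 in a fit of the compared groups alone and 1 to 4 when 1 library was left out. For wild-type MII against GV it was 5 to 8 over the left-out libraries, with 5 without the second wild-type GV library. For labelled Btg4-/- zygote against MII it was 0 with the compared groups alone and 2 to 4 over the left-out libraries, and for the genotype difference from MII to zygote 2 to 4. Some differences that did not pass changed sign. Obox5 in zygotes was -0.00864 under median-of-ratios scaling, -0.22 under quantile normalization and -0.0658 to 0.17 over the left-out libraries, where Obox3 ran from -0.43 to 0.0695. Lhx8 in labelled Btg4-/- from MII to zygote was -0.0336 under median-of-ratios scaling. Over the left-out libraries Sohlh2 from MII to zygote ran from -0.61 to 0.34 in wild type and from -0.0525 to 0.37 in labelled Btg4-/-, Sohlh1 from GV to MII in labelled Btg4-/- from -0.45 to 0.43, and Obox6 from zygote to 2-cell in labelled Btg4-/- from -0.0851 to 0.68. The genotype difference from MII to zygote ran from -0.35 to 0.59 for Figla and from -0.18 to 0.77 for Sohlh2, and that from zygote to 2-cell from -0.11 to 0.12 for Lhx8 and from -0.17 to 0.20 for Nobox, with -0.0810 for Lhx8 under quantile normalization. The cause was not tested.

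All-gene counts moved as well. At GV 973 genes passed, but 488 under quantile normalization, 0 in a fit of the compared groups alone, and 305, 262 and 327 without the second labelled Btg4-/-, the first wild-type or the second wild-type GV library. With the compared groups alone 3435 of 6037 passed in 2-cell embryos, 1161 of 3506 for wild-type zygote against MII and 659 of 1933 for the same step in labelled Btg4-/-. Without single libraries these steps gave 2015 (second wild-type zygote library) and 801 to 1086, and the genotype difference from MII to zygote gave 874 to 967 of 1503. The median over all genes moved by more than 0.1 with scaling, from -0.12 to 0 at GV, from 0.22 to 0.04 for wild-type zygote against MII and from 0.22 to 0.04 for the genotype difference from GV to MII under median-of-ratios scaling. It also moved from 0.14 to -0.02 for labelled Btg4-/- MII against GV and from -0.17 to -0.05 for 2-cell against zygote, and from -0.11 and -0.12 to 0 under quantile normalization for the genotype differences of the later steps. Depth is known only relative to another library, so genes near 1 FPKM, such as Sohlh1, rest on few fragments.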
